A study of Mus musculus with 6 samples.

Results

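The vacuolar proton pump (V-ATPase) and the proteins that work with it in acid secretion were followed through 32 genes of the 23504 in the table. They were taken by gene symbol through their Ensembl identifiers, by a rule that uses no measured value, although the list was drawn up with earlier results of these data known. Of these, 20 encode subunits or accessory proteins of the pump, and 12 encode ion transporters, carbonic anhydrase II and trafficking proteins of lysosomes and of the osteoclast's resorbing membrane. All 32 had a row, and 30 reached the mean of 1 FPKM that was required for a test. FPKM is the number of fragments of a gene scaled by its length and by the depth of the library, so that levels of genes of different length can be set side by side.

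Bone marrow-derived macrophages (BMMs), which RANKL turns into osteoclasts, came from young male C57BL/6 mice with no stated genetic change. They were cultured for 3 days before RNA was taken, in 3 libraries with DASA-58, a small-molecule activator of pyruvate kinase M2 (PKM2), and in 3 libraries with an equal volume of DMSO, the solvent. The study's design asks what the activator changes in the RNA of cells on the way to osteoclasts. The study's account of its results has RANKL in both groups, but the description of the libraries names it for the DASA-58 cultures alone, does not give the dose of DASA-58 and at one point spells the compound DASA-48. Nothing says whether the 3 libraries of a group came from separate mice or separate cultures, so the p-values measure only the spread between these libraries, which may be technical.

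In background, the V-ATPase is a rotary pump in which the cytosolic V1 sector splits ATP and the membrane-bound V0 sector carries protons across the membrane. Every cell uses it to acidify lysosomes and endosomes, whereas osteoclasts also place it in the ruffled border and pump acid onto bone, where mineral dissolves. Osteoclasts do so with particular isoforms, above all the a3 subunit (Tcirg1) and the d2 subunit (Atp6v0d2), while a1, a2 and d1 serve in many other cells. The protons come from carbonic anhydrase II (Car2), bicarbonate leaves through the exchanger AE2 (Slc4a2), and chloride follows through ClC-7 (Clcn7) with its partner Ostm1. Loss of Tcirg1, Clcn7, Ostm1, Snx10, Plekhm1 or Car2 function is known to cause osteopetrosis.

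Depth was even across the libraries, at 18191560 to 18968556 fragments recovered from the FPKM values, and a tested member with recovered fragments held 78 to 16291 of them in a library. All 8 tested osteoclast markers of 9 listed were lower with DASA-58 (limma), and the 9 summed to 745 to 800 FPKM with DMSO against 432 to 450 FPKM with DASA-58. Calcr, which marks mature osteoclasts, was low in every library, at 0.604 to 0.669 FPKM with DMSO against 0.176 to 0.256 FPKM with DASA-58. The 8 macrophage markers summed to 16412 to 17255 FPKM and 17342 to 19651 FPKM, with 3 called higher and 1 lower. Lyz2 alone made up most of these sums, at 14701 to 15513 FPKM with DMSO against 15447 to 17767 FPKM with DASA-58. It overlapped between the groups and was not called (adjusted p = 0.109, limma). Of 7 tested neutrophil markers 4 were lower, the list of 8 summing to 174 to 177 FPKM against 137 to 143 FPKM, while Ly6g was at 0 in all DASA-58 libraries and at most 0.0583 FPKM with DMSO. Markers of B cells summed to at most 2.38 FPKM, T and NK cells to at most 1.72 FPKM, dendritic cells to at most 0.194 FPKM and mast cells or basophils to at most 0.423 FPKM. Stromal markers summed to 32.2 to 34.9 FPKM with neither tested gene, Col1a1 or Col1a2, called, and of 3 megakaryocyte markers Pf4 was higher while Itga2b and Gp9 stayed at or below 0.140 FPKM. In bulk RNA of this kind, fewer osteoclasts and less RNA per osteoclast cannot be told apart, and the part of these cell types in the results below was not tested.

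With DASA-58, 8 of the 30 tested members were lower and 2 were higher by limma, with p-values adjusted after Benjamini and Hochberg across the 10965 tested genes of the table and a threshold of 0.05. This is 26.7% lower and 6.67% higher, where 7.28% of all genes tested were lower and 4.24% higher. The share called over all genes was greater when a mean of at least 5 FPKM was required. There 844 of 7179 genes were lower and 505 higher, with 10 members lower and 2 higher. Atp6v0d2 and Car2 are among the genes that the study itself picked from these libraries for a heat map, so they are not independent evidence of the direction, and without this pair 6 of 28 were lower and 2 higher. The groups did not overlap for 18 members (60.0%), 10 with all DASA-58 libraries below and 8 with all above, against 33.4% of all genes tested. Most changes were small. The median log2 fold change of the 30 was -0.01, against -0.03 for all genes tested, and 20 members were not called. Among the tested members, a change of more than 20% of the DMSO mean was found in 4, of which Car2, Atp6v0d2 and Slc4a2 were lower and Slc9a9 was higher. The split depends on how the libraries are scaled: of all called genes 63.2% were lower with FPKM as deposited, 45.8% to 49.5% with median centring, a trimmed mean of log ratios or quantile normalization, and 71.3% with equal library totals. The members then stood at 6 lower and 2 higher in each of the first 3 and at 10 lower and 1 higher with equal totals. In what follows, values are those of DMSO replicates 1 to 3 and then of DASA-58 replicates 1 to 3.

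**Figure D1:**
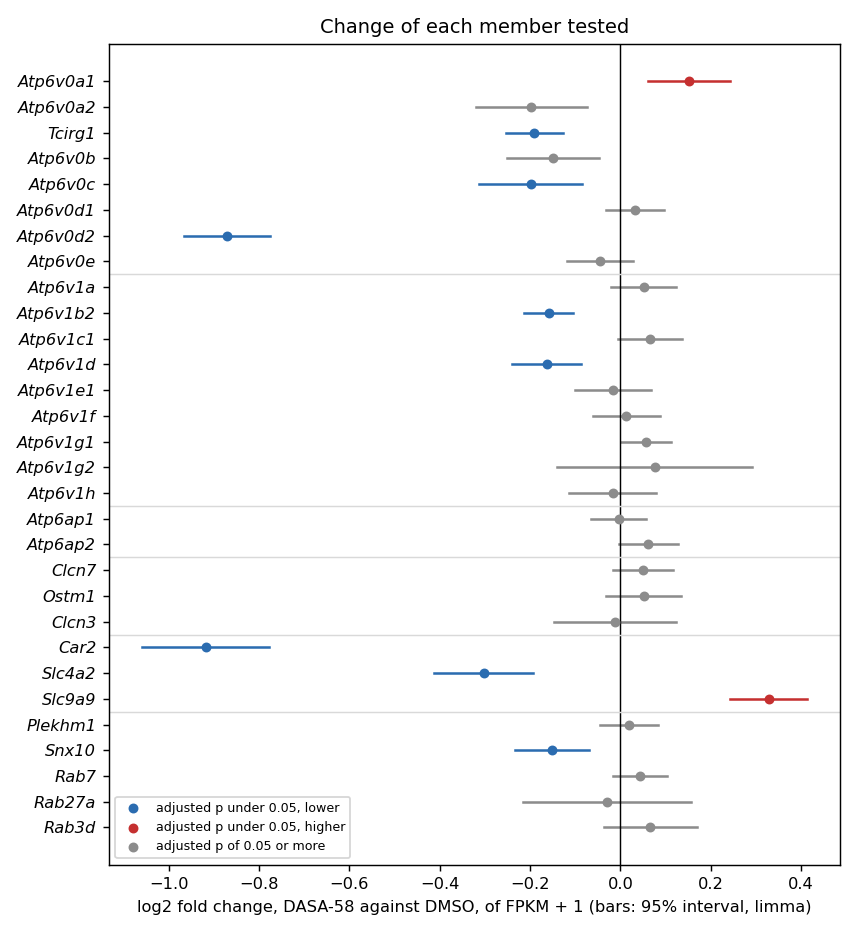
Log2 fold change of each of the 30 tested members, DASA-58 against DMSO, on the log2(FPKM + 1) scale, with 95% intervals from limma and lines between the V0, V1, accessory, chloride, proton and bicarbonate, and trafficking genes. Car2 (-0.92) and Atp6v0d2 (-0.87) stand far to the left, Slc9a9 (0.33) is farthest to the right, and most V1 genes lie close to 0.

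The promoters show which letters stand ahead of some of these genes. RefSeq (GRCm38.p6) held a window of 250 bases before to 50 bases after a start site for 24 of the 32 members, in 36 windows. Atp6v0a2, Atp6v0d2, Atp6v1b2, Atp6v1c1, Atp6v1g1, Atp6v1h, Car2 and Syt7 had no entry. Searched on both strands were CACGTG, the E-box read by MITF and TFEB, which drive lysosomal genes, TCATGTG, a related MITF site, TGACTCA, the AP-1 site, and GGAAAA, the core read by NFAT factors. The 250 bases before the start are given for the a3 subunit as the osteoclast isoform, for d1 as the isoform of many cells, for Atp6v0b and Clcn7 as windows with CACGTG, and for Slc9a9 as the gene with the greatest rise. Capitals mark the motif letters, and for Atp6v0d1 the CACGTG begins with the last 3 letters shown.
Tcirg1, chr19:3905231-3905480, minus strand, the innermost of 3 windows: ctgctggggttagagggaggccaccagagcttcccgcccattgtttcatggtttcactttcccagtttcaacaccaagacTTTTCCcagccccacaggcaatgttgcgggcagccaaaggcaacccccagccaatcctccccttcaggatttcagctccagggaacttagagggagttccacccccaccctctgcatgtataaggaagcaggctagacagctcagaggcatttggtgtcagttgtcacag
Atp6v0d1, chr8:105566065-105566314, minus strand: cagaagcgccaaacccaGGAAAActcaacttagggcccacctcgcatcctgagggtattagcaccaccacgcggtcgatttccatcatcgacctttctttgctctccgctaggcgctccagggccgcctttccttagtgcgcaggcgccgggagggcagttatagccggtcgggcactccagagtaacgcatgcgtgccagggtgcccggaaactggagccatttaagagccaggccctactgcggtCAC
Atp6v0b, chr4:117887330-117887579, minus strand: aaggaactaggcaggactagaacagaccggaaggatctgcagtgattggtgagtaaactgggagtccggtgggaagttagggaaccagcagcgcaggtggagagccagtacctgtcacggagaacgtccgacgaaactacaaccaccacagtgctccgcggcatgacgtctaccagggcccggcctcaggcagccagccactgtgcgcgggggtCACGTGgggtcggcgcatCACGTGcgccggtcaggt
Clcn7, chr17:25133141-25133390, plus strand, the first of 2 windows: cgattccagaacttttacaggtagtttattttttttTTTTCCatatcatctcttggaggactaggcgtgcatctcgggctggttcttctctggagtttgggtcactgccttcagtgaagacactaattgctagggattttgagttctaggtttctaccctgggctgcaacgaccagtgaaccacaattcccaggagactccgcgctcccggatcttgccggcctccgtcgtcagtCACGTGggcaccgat
Slc9a9, chr9:94669642-94669891, plus strand: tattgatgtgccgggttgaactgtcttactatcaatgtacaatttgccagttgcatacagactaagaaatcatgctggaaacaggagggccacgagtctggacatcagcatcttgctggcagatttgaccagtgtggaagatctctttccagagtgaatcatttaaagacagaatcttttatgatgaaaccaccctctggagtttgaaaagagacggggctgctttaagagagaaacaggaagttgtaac

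CACGTG stood in 6 of the 36 member windows (16.7%), against 7.15% of 32851 windows of all genes. Its 6 genes were Atp6v0b, Atp6v0d1, Atp6v0e, Atp6v1a, Clcn7 and Rab27a, and none of these was called, where 5 of the 23 tested members with a window were lower and 2 higher. In Atp6v0b it occurred at -36 to -31 and again at -18 to -13, counted from the first base of the transcript as 1. GGAAAA or its reverse complement TTTTCC stood in 6 member windows (16.7%) against 23.4% of all windows, in Tcirg1, Snx10, Atp6v0c, Atp6v0d1, Clcn7 and Rab27a, of which the first 3 were lower. TCATGTG occurred in 2 member windows (5.56% against 3.77%), of Atp6v0c and Clcn7, and TGACTCA in 1 (2.78% against 5.20%), of Snx10. The window of Slc9a9 and the outer windows of Tcirg1 held none of the 4 motifs, and in no member window did matches of different motifs share letters. A match is only a run of letters in this window and says nothing of binding.

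The d subunit couples the V1 and V0 sectors, and its isoform d2 is the one that marks osteoclasts and is also needed for the fusion of their precursors. Atp6v0d2 (ENSMUSG00000028238) stood at 33.5, 30.7 and 32.9 FPKM in the DMSO libraries and at 17.6, 17.3 and 16.8 FPKM in the DASA-58 libraries. The 2 groups were far apart, with means of 32.4 ± 1.45 and 17.2 ± 0.439 FPKM (SD, n = 3), a fall of 46.7%. Its log2 fold change was -0.87 with a standard error of 0.0411 (adjusted p = 4.25e-05, limma). By size of the fall, Atp6v0d2 was 15 among all genes tested, called or not. The isoform of other cells, Atp6v0d1 (ENSMUSG00000013160), was the more abundant one, at 114.6, 114.6 and 109.4 FPKM with DMSO against 115.6, 115.3 and 115.5 FPKM with DASA-58. All DASA-58 libraries lay above the DMSO libraries, yet the log2 fold change was only 0.03, with a 95% interval of -0.031 to 0.097 (adjusted p = 0.492).

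Within a library, the ratio of Atp6v0d2 to Atp6v0d1 does not change when all values of the library are multiplied by 1 factor. It was 0.292, 0.268 and 0.301 with DMSO and 0.153, 0.150 and 0.145 with DASA-58. On the log2 scale it moved from -1.80 ± 0.0862 to -2.74 ± 0.0363 (SD, n = 3), a difference of -0.94 with no overlap (p = 0.1 in a two-sided exact permutation test, which can go no lower with 3 libraries a group, and 0.25 after Benjamini-Hochberg adjustment over the 5 ratios compared). The share of d2 in the summed d subunit RNA went from 22.3% ± 1.03 to 13.0% ± 0.283. Together the d isoforms summed to 145 ± 2.88 FPKM and 133 ± 0.508 FPKM.

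The a subunit holds the path of the protons and directs the pump to a membrane, a3 to the ruffled border and late lysosomes. Tcirg1 (ENSMUSG00000001750) was the most abundant member with DMSO, at 197, 193 and 187 FPKM with DMSO against 169.9, 167 and 168 FPKM with DASA-58. It fell by 12.4%, with a log2 fold change of -0.19 and a standard error of 0.0269 (adjusted p = 0.00467, limma). Atp6v0a1 (ENSMUSG00000019302), the isoform of many cells and of synaptic vesicles, went the other way, from 21.6, 21.6 and 20.5 FPKM to 24.1, 22.7 and 24.3 FPKM. Its rise of 11.6% corresponds to 0.15 on the log2 scale (standard error 0.0388, adjusted p = 0.0439). The log2 fold change stayed between 0.13 and 0.18 with any library left out, while the call was lost without DMSO replicate 1 (adjusted p = 0.0896), 2 (0.072) or 3 (0.104) and without DASA-58 replicate 1 (0.127) or 3 (0.140). Atp6v0a2, the isoform of the Golgi apparatus and endosomes, stood at 7.62, 8.004 and 7.61 FPKM and 7.15, 6.46 and 6.29 FPKM. The groups did not overlap, but its log2 fold change of -0.20 did not pass the test (adjusted p = 0.0524) except without DASA-58 replicate 1 (0.0359) among the fits that left out a library.

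Relative to a1, a3 was therefore lower in each DASA-58 library, with ratios of 9.11, 8.96 and 9.11 with DMSO and 7.05, 7.36 and 6.92 with DASA-58. The difference of the log2 ratios was -0.35, from 3.18 ± 0.0136 to 2.83 ± 0.0452 (SD, n = 3), again with no overlap (exact permutation p = 0.1, 0.25 after adjustment over the 5 ratios). Even so, a3 made up most of the a subunit RNA in both groups, at 86.9% ± 0.169 with DMSO and 84.7% ± 0.353 with DASA-58. The share of a1 was 9.59% ± 0.0739 and 11.9% ± 0.33, and that of a2 was 3.50% ± 0.113 and 3.34% ± 0.199. The osteoclast isoforms Tcirg1 and Atp6v0d2 were thus both called lower, while of the other isoforms of these subunits a1 was called higher and a2 and d1 were not called. The calls did not divide a2 from a3 by size of change, since a2 fell by 14.3% and a3 by 12.4%.

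**Figure D2:**
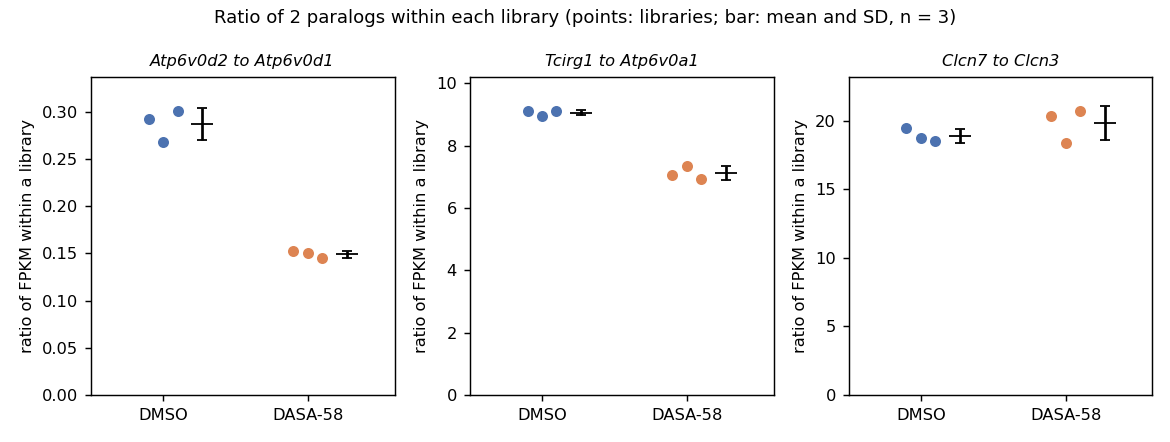
Ratio of the FPKM of 2 paralogs within each library, with the mean and SD of 3 libraries per group, on axes that start at 0. The ratios of Atp6v0d2 to Atp6v0d1 (0.268 to 0.301 against 0.145 to 0.153) and of Tcirg1 to Atp6v0a1 (8.96 to 9.11 against 6.92 to 7.36) do not overlap between DMSO and DASA-58, whereas those of Clcn7 to Clcn3 do.

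The rest of the V0 sector changed little. Atp6v0b, which encodes the c″ subunit of the proton-carrying ring, stood at 108, 109 and 97.8 FPKM with DMSO against 93.1, 93.5 and 96.5 FPKM with DASA-58, without overlap, and did not pass the test (log2 fold change -0.15, adjusted p = 0.0685). Its DMSO replicate 3 was the lowest of its group, and without that library the adjusted p was 0.0124. Atp6v0c, the c subunit of the same ring, was called lower, from 12.5, 12.9 and 13.0 FPKM to 11.9, 10.8 and 10.5 FPKM, with a log2 fold change of -0.20 and a standard error of 0.0493 (adjusted p = 0.0398). This value is uncertain, since its pseudogene Atp6v0c-ps2 was counted at 8.50 to 9.92 FPKM with DMSO against 10.9 to 16.3 FPKM with DASA-58, so that reads may be split between them. The Atp6v0c call was also lost without DMSO replicate 1 (adjusted p = 0.0824), 2 (0.0899) or 3 (0.0981) and without DASA-58 replicate 2 (0.115) or 3 (0.122).

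Atp6v0e, the small e subunit of the V0 sector, overlapped between groups at 67.5, 71.3 and 70.4 FPKM and 66.6, 69.1 and 67.0 FPKM, with an interval of the log2 fold change of -0.12 to 0.028. Its paralog Atp6v0e2 was almost absent, with 5, 6 and 3 fragments in the DMSO libraries and 1, 4 and 3 fragments in the DASA-58 libraries. Since a count of 0 allows up to 3 fragments, no fold is given for Atp6v0e2, and its ratio to Atp6v0e overlapped between groups (exact permutation p = 0.3, adjusted over the 5 ratios 0.5). Over the 8 tested V0 genes, 3 were lower (37.5%, against 7.28% of all genes tested) and 1 was higher (12.5%, against 4.24%), with a median log2 fold change of -0.17. The summed V0 level went from 554 ± 13.2 to 505 ± 1.74 FPKM (SD, n = 3).

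The V1 sector summed to the same level in both groups, 735 ± 4.99 FPKM with DMSO against 735 ± 3.08 FPKM with DASA-58. Of its 9 genes, 2 were lower (22.2%, against 7.28% of all genes tested) and 0 were higher (against 4.24%). By limma 3 were at an unadjusted p under 0.05, and the median log2 fold change was 0.01. Atp6v1b2, which forms the B subunit beside the catalytic A subunits and is the B isoform that osteoclasts use, stood at 124, 123 and 123 FPKM and 111, 110.1 and 110.2 FPKM. The groups lay apart with little spread within them, and the fall of 10.5% passed the test (log2 fold change -0.16, standard error 0.0233, adjusted p = 0.00545). Atp6v1d, part of the central rotor stalk, fell by 11.0%, from 32.6, 32.0 and 33.5 FPKM to 28.9, 29.8 and 28.5 FPKM (log2 fold change -0.16, standard error 0.0329, adjusted p = 0.0193). The Atp6v1d call was lost without DMSO replicate 1 (adjusted p = 0.0609) or 3 (0.0511) and without DASA-58 replicate 1 (0.0655) or 3 (0.0763).

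Atp6v1a, the catalytic A subunit that binds and splits ATP, was at 98.7, 101 and 104 FPKM and 106, 102 and 106 FPKM, with overlap between the groups. Atp6v1g1, a subunit of the outer stalks, was the most abundant V1 gene, at 186, 184 and 186 FPKM and 191, 191 and 196 FPKM. All of its DASA-58 libraries lay above the DMSO libraries, but the log2 fold change of 0.06 had an adjusted p of 0.168. Atp6v1c1, which joins the outer stalks to the V0 sector, was likewise higher in every DASA-58 library (101, 95.7 and 100.5 against 105, 104 and 102 FPKM) without passing the test (adjusted p = 0.204). The stalk subunit Atp6v1e1 (55.3, 55.8 and 52.8 against 53.4, 52.6 and 56.2 FPKM), the rotor subunit Atp6v1f (119, 126 and 124 against 122, 127 and 123 FPKM) and the regulatory subunit Atp6v1h (14.0, 13.5 and 14.9 against 13.8, 14.0 and 14.0 FPKM) all overlapped. For these 6 genes the 95% intervals of the log2 fold change lay between -0.11 and 0.14. Atp6v1g2, the G isoform best known from neurons, was low at 2.26, 2.13 and 2.73 FPKM and 2.81, 2.21 and 2.65 FPKM, and its wider interval of -0.14 to 0.29 rested on as few as 101 fragments in a library. Its ratio to Atp6v1g1 did not separate the groups (exact permutation p = 0.9).

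Neither of the 2 accessory proteins was called, and 0 had an unadjusted p under 0.05 (limma). Atp6ap1 (Ac45), which takes part in the assembly of the V0 sector and in the sorting of the pump, was at 166, 173 and 171 FPKM with DMSO against 169.8, 167 and 171 FPKM with DASA-58, with an interval of -0.064 to 0.057. Atp6ap2, the prorenin receptor, stood at 136, 131 and 138 FPKM and 141, 141 and 141 FPKM. Its DASA-58 libraries were all above the DMSO libraries by a small margin, and the log2 fold change of 0.06 had an adjusted p of 0.203. Over all 20 genes of the pump, 5 of 19 tested were lower (26.3%) and 1 was higher (5.26%), against 7.28% and 4.24% of all genes tested, and the 13 others had 95% intervals between -0.32 and 0.29.

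**Figure D3:**
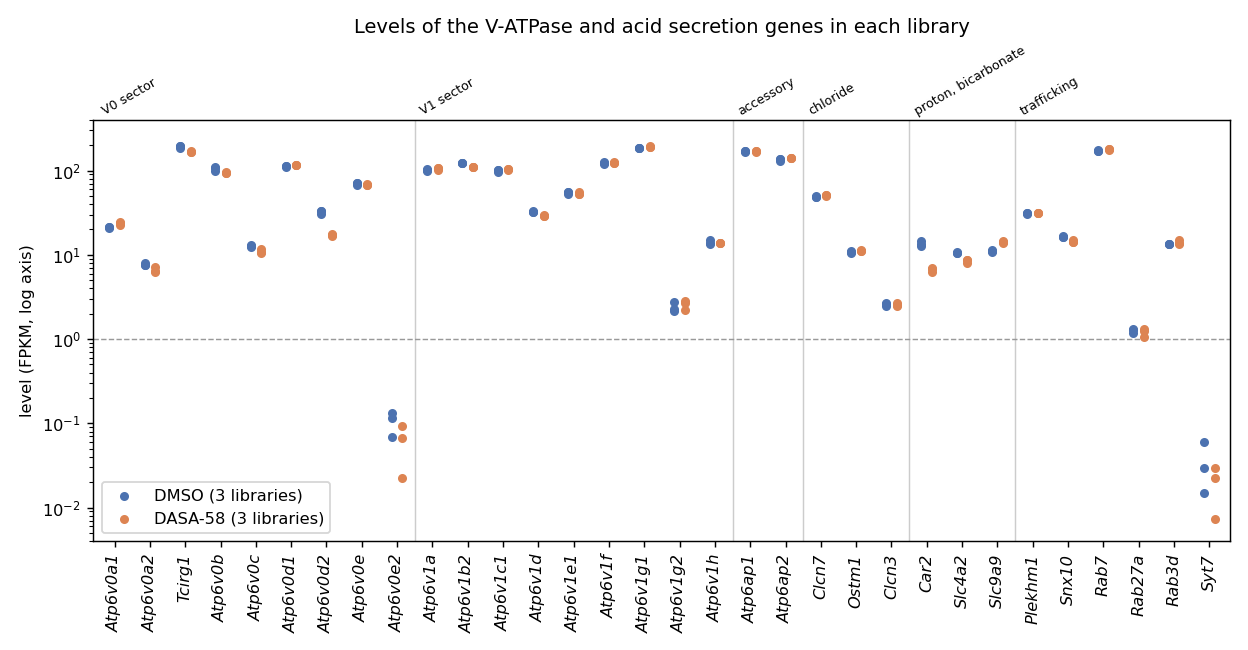
Level of each of the 32 genes in each of the 6 libraries, in FPKM on a log axis, grouped by role, with a dashed line at 1 FPKM. Tcirg1, at 167 to 197 FPKM, is among the most abundant, Atp6v0e2 and Syt7 lie below the line, and visible gaps between DMSO and DASA-58 appear at Atp6v0d2 and Car2.

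Greater changes were found in the supply of protons and the removal of bicarbonate. Car2 (ENSMUSG00000027562), which makes protons and bicarbonate from carbon dioxide and water, fell by 50.6%, from 12.6, 14.5 and 13.4 FPKM with DMSO to 6.21, 6.79 and 7.01 FPKM with DASA-58. The groups were well separated, and the log2 fold change was -0.92 with a standard error of 0.0607 (adjusted p = 0.000163, limma). By size of the fall, Car2 was 10 among all genes tested, called or not. Red cells also hold much carbonic anhydrase II. Of 7 erythroid markers, the 2 with a row here, Alas2 and Klf1, summed to 0.0457 to 0.148 FPKM with DMSO and 0.0817 to 0.287 FPKM with DASA-58, the other 5 were not analysed here, and the part of red cells in the Car2 level was not tested. Slc4a2 (ENSMUSG00000028962), the exchanger that trades bicarbonate for chloride at the membrane facing away from bone, fell by 20.6%, from 10.4, 10.5 and 10.9 FPKM to 8.68, 8.65 and 7.89 FPKM (log2 fold change -0.30, standard error 0.0472, adjusted p = 0.00710). Its model shares 1141 bases (13.7%) with Fastk on the opposite strand, whose level was 15.4 to 16.5 FPKM with DMSO against 15.0 to 15.4 FPKM with DASA-58, and whether counting used the strand is not given in the sources used here. Slc9a9 (ENSMUSG00000031129), a sodium and proton exchanger of endosomes, rose by 27.8%, from 11.2, 11.4 and 10.9 FPKM to 14.6, 14.2 and 13.9 FPKM. Its groups lay well apart, with a log2 fold change of 0.33 and a standard error of 0.0368 (adjusted p = 0.00169, limma). By size of the rise, Slc9a9 was 218 among all genes tested, called or not.

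**Figure D4:**
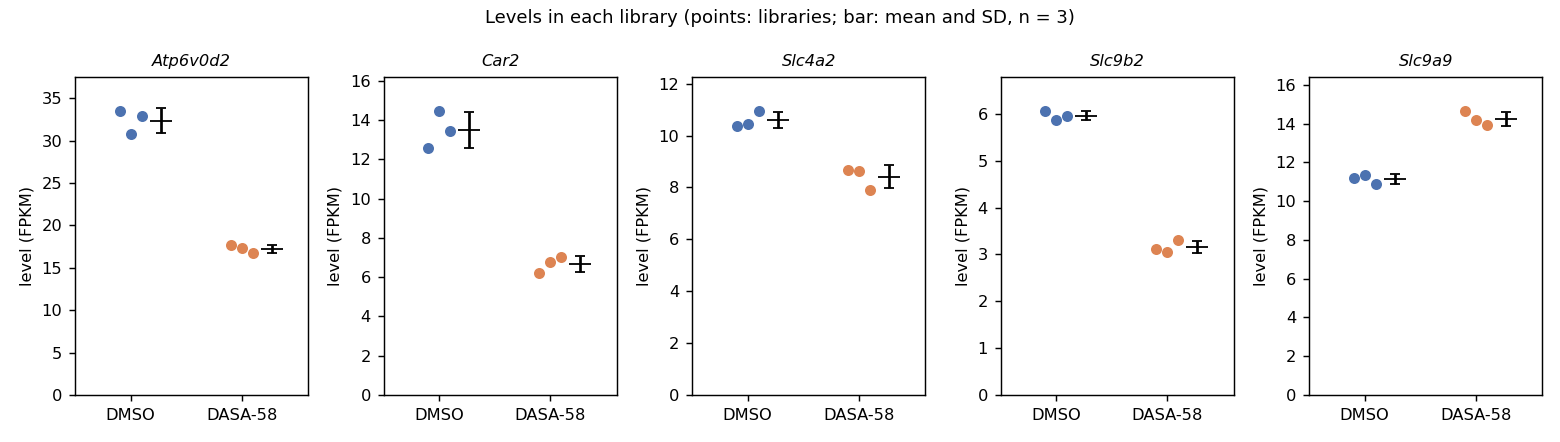
Level in FPKM in each library of Atp6v0d2, Car2, Slc4a2, Slc9b2 and Slc9a9, with the mean and SD of 3 libraries per group, on axes that start at 0. In the first 4 genes every DASA-58 point lies below every DMSO point, and in Slc9a9 every DASA-58 point (13.9 to 14.6 FPKM) lies above (10.9 to 11.4 FPKM).

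Of the 3 chloride genes 0 were called, where 7.28% of all genes tested were lower and 4.24% higher, and 0 had an unadjusted p under 0.05 (limma). With so few genes this count does not set the chloride route apart from other genes. Clcn7, the chloride and proton exchanger of lysosomes and the ruffled border, stood at 48.6, 48.9 and 49.9 FPKM with DMSO against 51.6, 49.8 and 51.2 FPKM with DASA-58, with an interval of -0.016 to 0.12. Ostm1, which ClC-7 needs for its stability, was at 10.63, 11.01 and 10.71 FPKM and 11.45, 11.05 and 11.14 FPKM, higher in every DASA-58 library but not called (adjusted p = 0.406). Clcn3, an endosomal exchanger of the same family, was low at 2.50, 2.62 and 2.70 FPKM and 2.54, 2.71 and 2.48 FPKM. The ratio of Clcn7 to Clcn3 was 18.5 to 19.4 with DMSO and 18.4 to 20.7 with DASA-58, so the groups overlapped (exact permutation p = 0.4). A list of 6 genes beside the pump, whose loss is known to impair acid secretion or the ruffled border of osteoclasts, was chosen with earlier results known. Of these, Car2, Slc4a2 and Snx10 were lower (3 of 6, against 7.28% of all genes tested), the Snx10 call holding in 5 of 17 alternatives. The intervals of the other 3, Clcn7, Ostm1 and Plekhm1, lay between -0.045 and 0.13. The share depends on the choice of genes. Rab7 and Rab3d, trafficking members outside this list, were not called (adjusted p = 0.325 and 0.386, limma).

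Among the trafficking genes, 1 of 5 tested was lower, against 7.28% of all genes tested. Snx10, a sorting nexin needed for the ruffled border, fell by 10.6%, from 16.1, 16.2 and 16.6 FPKM to 15.0, 14.4 and 14.3 FPKM (log2 fold change -0.15, standard error 0.0357, adjusted p = 0.0337). The Snx10 call was lost without DMSO replicate 1 (adjusted p = 0.0782), 2 (0.069) or 3 (0.0845) and without DASA-58 replicate 2 (0.102) or 3 (0.113). Plekhm1, an adaptor that binds Rab7 on late endosomes, was at 30.6, 31.4 and 31.0 FPKM and 31.5, 31.6 and 31.2 FPKM. Rab7, the small GTPase of late endosomes that guides them to the ruffled border, was among the most abundant members, at 177, 171 and 173 FPKM and 178, 181 and 177 FPKM. Both overlapped between groups, with intervals of -0.045 to 0.084 and -0.017 to 0.10. A pseudogene, Rab7-ps1, was counted at 12.1 to 15.5 FPKM over the 6 libraries and may share reads with Rab7.

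Rab3d, a GTPase of secretory vesicles in osteoclasts, stood at 13.5, 13.3 and 13.5 FPKM and 13.6, 13.7 and 15.1 FPKM, without overlap, but only DASA-58 replicate 3 lay clearly above the DMSO libraries (adjusted p = 0.386). Rab27a, which tethers lysosome-related organelles, was close to the lower limit for testing, at 1.29, 1.18 and 1.30 FPKM and 1.26, 1.32 and 1.06 FPKM. Its interval of -0.22 to 0.16 includes changes as large as the one called in Atp6v1b2. Syt7, a calcium sensor for the fusion of lysosomes with the cell membrane, was at 0.0151 to 0.0599 FPKM with DMSO against 0.00725 to 0.0292 FPKM with DASA-58, where 3 fragments correspond to about 0.0211 to 0.022 FPKM by the annotated length, and it was not tested.

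The remaining genes of the pathway were taken from a list of 54 names outside the set, of which 47 had a row and 40 were tested. Of these, 3 were lower (7.50%) and 0 were higher (limma), against 7.28% and 4.24% of all genes tested, with 12 at an unadjusted p under 0.05 and a median log2 fold change of 0.01. Slc9b2 (NHA2), a sodium and proton exchanger that is induced in osteoclasts, stood at 6.06, 5.87 and 5.94 FPKM with DMSO against 3.12, 3.05 and 3.30 FPKM with DASA-58. Its log2 fold change was -0.74 with a standard error of 0.0475 (adjusted p = 0.000143), and it too belongs to the study's heat map. Slc4a7, a sodium and bicarbonate cotransporter, stood at 11.3, 10.4 and 11.9 FPKM and 9.50, 9.83 and 9.47 FPKM (log2 fold change -0.20, adjusted p = 0.0455). The count of 3 lower fell to 1 or 2 with any library left out and to 1 with quantile normalization, median centring, a trimmed mean of log ratios or no variance trend, and it rose to 5 with equal library totals. None of 10 tested genes for assembly and regulation of the pump and none of 19 for trafficking to the ruffled border was called, with 1 and 7 of them at an unadjusted p under 0.05. The subunit paralogs of kidney and other epithelia with a row, 2 of 6, summed to at most 0.0758 FPKM and were not tested.

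Which calls held was checked over 17 other settings and left-out libraries. Atp6v0d2, Car2, Tcirg1, Atp6v1b2 and Slc9a9 passed the threshold in all 17, with log2 fold changes of Atp6v0d2 and Car2 that were at most -0.75 and -0.66 throughout. Slc4a2 passed in 16, the exception being a fit without variance shrinkage (adjusted p = 0.0515). Atp6v1d passed in 10, Atp6v0a1 in 7 and Atp6v0c and Snx10 in 5 each.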

How the data were processed

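RNA-seq of 6 libraries of mouse BMMs, 3 with DMSO and 3 with DASA-58, was analysed from the FPKM values that the authors deposited in 1 table of 23504 genes, as the gene's fragments scaled by its length and by the fragments counted in the library. The submitters' processing notes name HISAT2 2.1.0, HTSeq 0.6.0 and the build mm8. The annotation and the use of strand are not given in the sources used here, and coordinates of genes in the files were therefore not printed. Each column was assigned from the sample labels, and 0 columns were left unused. Symbols were matched for 23455 identifiers. With union exon lengths of GENCODE mouse release M21, 90.8% of genes gave whole fragments in every library (tolerance 0.01). Of the members, 27 did so, 3 more with a fitted length, and 2 (Atp6v1c1 and Syt7) stayed without. Fragments serve only to state depth, and cover counting error only.

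The log2(FPKM + 1) values of 10965 genes, those averaging 1 FPKM or more over the 6 libraries, were fitted with limma 3.58.1 under R 4.3.3 (lmFit, then eBayes with a trend), and p-values were adjusted over them by the Benjamini-Hochberg method. Fold changes on this scale understate those of low genes. A gene was called at an adjusted p under 0.05, whatever the size of the change. The fit was tested on simulated data. Ratios of paralogs within a library were compared with two-sided exact permutation tests in SciPy 1.17.1. Every member was named, of the other pathway genes those with an adjusted p under 0.05 except 1 that is not reported here, and marker lists as sums. Alternatives were 2 other pseudocounts, 2 other filters, 4 other scalings, no variance trend, no variance shrinkage, a replicate block and each library left out. Members and lists were chosen with earlier results of these data known. Promoter sequences are RefSeq's (GRCm38.p6).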

Additional observations from a re-analysis of the deposited data

How the results depend on the processing

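The calls were repeated under 11 other settings and without each of the 6 libraries. Against 8 members lower and 2 higher, there were 4 and 1 without variance shrinkage, 6 and 1 without the filter on low values or without the variance trend, 10 and 1 with equal library totals, and 5 to 8 lower and 1 to 2 higher when a library was left out (5 without DMSO replicate 1 or DASA-58 replicate 3). For the V-ATPase, 5 lower and 1 higher became 3 and 0 without shrinkage, 4 and 0 without the filter or the trend, 7 and 0 with equal totals, and 3 to 5 and 0 to 1 without a library. For the acid secretion and trafficking genes, 3 lower became 1 without shrinkage. For the other pathway genes, 3 lower and 0 higher became 1 and 1 with quantile normalization, median centring or a trimmed mean of log ratios, 5 and 1 with equal totals, 2 and 1 with a mean of at least 5 FPKM or without shrinkage, 1 and 0 without the trend, and 1 to 2 and 0 to 1 without a library. Over all genes, 798 lower and 465 higher became 314 and 227 without shrinkage, 515 and 341 without the trend, 372 and 257 without the filter, 504 and 597 with median centring, 523 and 594 with a trimmed mean, and 385 to 604 and 273 to 373 without a library. The cause was not tested.

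The difference of the log2 ratio of Tcirg1 to Atp6v0a1 was -0.40 with quantile normalization. Members close to 0 changed sign without being called: under quantile normalization Atp6v1e1 was at 0.0133, Atp6v1h at 0.0102 and Clcn3 at 0.0194; with median centring Atp6v1e1 was at 0.0112, Atp6v1h at 0.0094, Atp6ap1 at 0.023 and Clcn3 at 0.0148; with a trimmed mean they were at 0.0092, 0.0074, 0.021 and 0.0128; with equal totals Atp6v1f was at -0.0043. With a library left out the ranges were -0.0434 to 0.0033 for Atp6v1e1, -0.0111 to 0.0317 for Atp6v1f, -0.0471 to 0.0177 for Atp6v1h, -0.0215 to 0.0081 for Atp6ap1, -0.0645 to 0.0205 for Rab27a, -0.0389 to 0.0076 for Clcn3 and -0.0299 to 0.1531 for the log2 ratio of Atp6v1g2 to Atp6v1g1.

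The replicate numbers gave no sign of pairing the libraries. Deviations of same-numbered libraries from their group means correlated at -0.0155, 0.0157 and -0.0162, and not every library correlated best with its own number. Such deviations cancel within a group, so these correlations cannot settle how the cultures were set up. With the replicate number as a block, 5 members were lower and 1 higher, with 3 and 0 for the V-ATPase and 1 other pathway gene lower, and over all genes 579 were lower and 378 higher. With 3 libraries a group, an exact test cannot go below 0.1, and Rab27a and Atp6v1g2 rest on as few as 78 and 101 fragments in a library, so small changes in them were not detectable at this depth.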
